A study of Mus musculus with 5 samples.

Results

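Haem synthesis and iron uptake genes were followed in 5 mouse hearts taken on embryonic day E12.5 from wild-type embryos, when the heart already pumps nucleated red cells. The genes were 9 in number, Alas1, Alas2, Alad, Urod, Cpox, Ppox, Fech, Slc25a37 and Tfrc. Every probe set whose platform annotation gave one of these symbols alone was taken, which found 20 probe sets of 9 genes among 20393 probe sets of 12394 genes. Each whole heart was 1 sample on its own Affymetrix mouse 430A array, and the hearts carry the replicate numbers 6 to 10 of the labels. All 5 had the same strain background, 129P2/OlaHsd crossed back to C57BL/6 for 2 generations, and no treatment or second condition is labelled. Nothing in the labels says whether the embryos shared a litter, so the test below measures only the spread between these hearts. In a whole heart, fewer cells of a type and less RNA per cell cannot be told apart.

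Haem is built in a chain of enzymes that starts and ends in mitochondria. The first step is made by Alas1 in most cells and by Alas2 in red cell precursors, Alad, Urod and Cpox act along the chain, Ppox carries out the step before the last, and Fech inserts iron into the ring. Iron reaches the chain through Tfrc, the transferrin receptor of the cell surface, and Slc25a37 (mitoferrin 1), which carries iron into mitochondria of red cell precursors. Red cell precursors express this pathway strongly because they fill with haemoglobin, whereas every cell with a respiratory chain needs some haem. A heart sample thus holds haem genes of the heart's own cells and of the blood inside it.

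The RefSeq promoter windows of the GRCm38.p6 mouse build are shown first for both first-step enzymes and for Cpox, because Alas2 and Alas1 are the erythroid and the housekeeping form of 1 enzyme and because Alas2 and Cpox held a GATAA match. Each run is the 250 bases before the annotated start, 5′ to 3′ on the gene's strand. Capitals mark matches on either strand to GATAA, the core that GATA factors of red cells recognise, to CCNCNCCC, a CACCC-type box, to GCATGCGC, the core of an NRF1 box, or to GGGCGG, a GC box, and the last can overlap a CCNCNCCC match. The Alas2 window is chrX:150547167-150547416 on the plus strand, the Alas1 window is chr9:106247731-106247980 on the minus strand, and the Cpox window is chr16:58669958-58670207 on the plus strand.
Alas2: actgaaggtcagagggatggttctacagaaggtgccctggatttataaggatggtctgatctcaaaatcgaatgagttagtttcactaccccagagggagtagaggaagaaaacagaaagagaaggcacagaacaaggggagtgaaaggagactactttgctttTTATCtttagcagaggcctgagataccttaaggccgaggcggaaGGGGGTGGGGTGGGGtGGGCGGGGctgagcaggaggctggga
Alas1: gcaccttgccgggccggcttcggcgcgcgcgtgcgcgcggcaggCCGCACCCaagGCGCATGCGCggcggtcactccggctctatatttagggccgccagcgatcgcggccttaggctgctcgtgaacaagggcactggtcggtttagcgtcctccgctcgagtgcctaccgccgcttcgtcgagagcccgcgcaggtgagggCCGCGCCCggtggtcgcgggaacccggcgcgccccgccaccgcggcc
Cpox: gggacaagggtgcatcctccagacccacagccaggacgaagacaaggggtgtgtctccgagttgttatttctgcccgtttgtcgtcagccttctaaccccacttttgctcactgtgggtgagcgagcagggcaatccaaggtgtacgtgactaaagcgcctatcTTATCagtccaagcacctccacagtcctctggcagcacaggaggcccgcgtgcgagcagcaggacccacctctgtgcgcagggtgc

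The Alas2 window held 1 GATAA match, beginning at -86 from the start, and 4 matches to CCNCNCCC between -42 and -26. The Alas1 window held no GATAA, 2 overlapping matches to GCATGCGC at -195 and -193, and 2 to CCNCNCCC. Alas1 has a second window upstream, which held 1 CCNCNCCC and 1 GGGCGG. Cpox held 1 GATAA, also at -86, and none of the other 3 motifs. Windows of 7 of the 9 genes were searched, 10 windows in all, and none of Fech or Slc25a37. GATAA lay in 2 of these 10 windows, those of Alas2 and Cpox, CCNCNCCC in 7, GGGCGG in 6 and GCATGCGC in 1, and windows of 1 gene can overlap. Of 32851 windows of this length in the table, 22.6% held GATAA, 45.9% CCNCNCCC, 32.7% GGGCGG and 2.26% GCATGCGC. The iron-responsive element was searched on the gene's strand as its CAGTGN loop with the bulged C and 5 paired bases. It was found in none of the 10 windows when the 50 bases after the start were included, and in 0.0792% of all windows. The search covered no more than 50 bases after each annotated start, so it cannot show whether the rest of a transcript carries the element. A match describes letters only, and a window without one says nothing about the factor.

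Levels are log2 of the scaled intensity plus 16, and a probe set is called above background where it exceeded the 95th percentile of 69 genes of unrelated tissues, such as lens, retina, testis and pancreas, on the same array. Background lay between 5.22 and 5.42. Levels of different probe sets are not comparable with each other, since each responds differently, so only differences between hearts are compared. Of the 20 probe sets, 12 were above background in all 5 hearts (60.0%, against 46.0% of all probe sets), 5 in some hearts and 3 in none. The 12 covered 8 of the 9 genes, and Cpox was the gene without one. The tissue label was borne out by its markers, with 12 of 12 cardiomyocyte genes above background in every heart, among them cardiac troponin T, Tnnt2, at 12.78 to 13.15 over the 5 hearts, and 13 of 23 measured erythroid genes were above it in every heart, where 51.7% of all genes were.

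**Figure D1:**
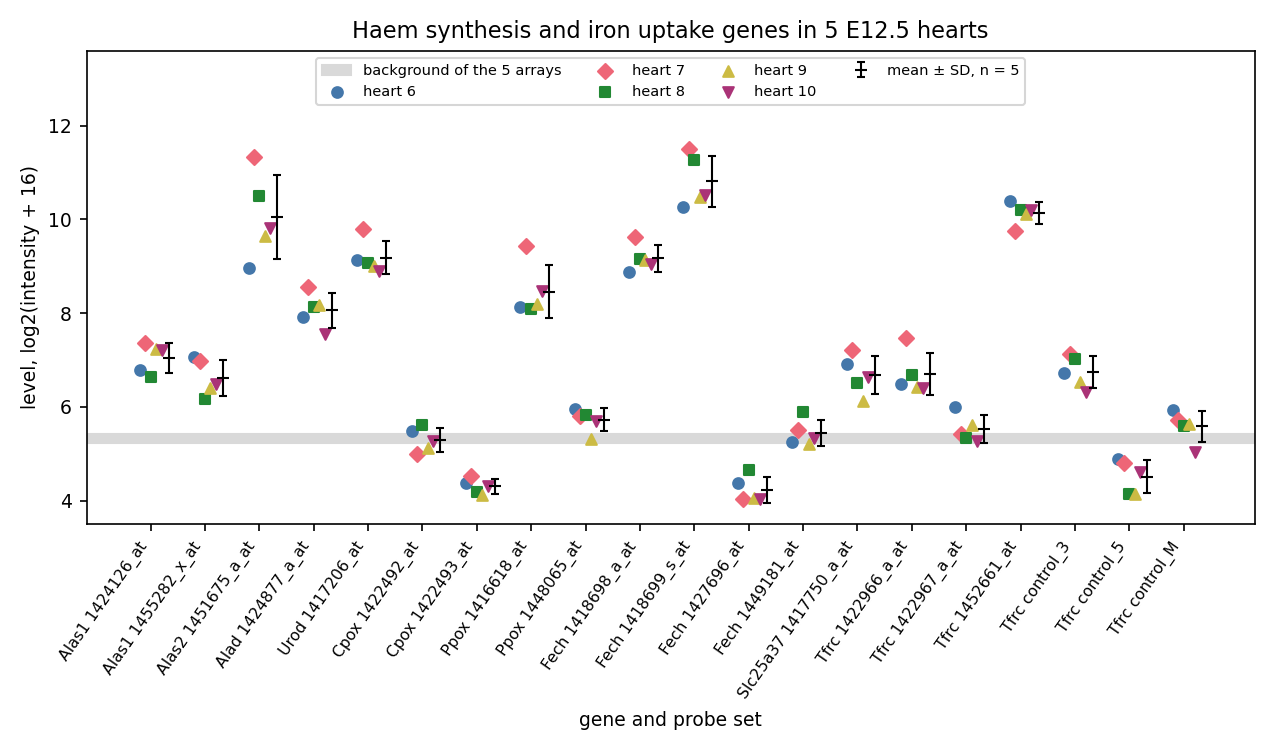
Level of each of the 20 probe sets in each heart, on a vertical axis of log2(intensity + 16). Coloured symbols are hearts, black bars the mean ± SD over 5 hearts and the grey band the range of background over the arrays. Heart 7, the red diamond, is at the top for 10 of the 12 probe sets that lie above background in all hearts, and at the bottom for Tfrc 1452661_at.

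Heart 7 stood highest for most of the member probe sets above background. Among the 12 probe sets above background, 10 had their highest level in heart 7, against 28.7% of all probe sets above background, and the other two, the second Alas1 probe set and Tfrc 1452661_at, were highest in heart 6. By gene, with the probe set of highest mean for each, heart 7 was highest for 7 of 8, against 30.4% of all genes above background. Heart 7 was the lowest for 1 of the 12, where 30.1% of all probe sets above background had their lowest level in it, so this array was at an extreme of either kind more often than the others. Under quantile normalization the count was 11 of 12, and under the other 3 settings of scale and offset it was 10. The ratio of 3' to 5' signal of the Gapdh control, a measure of RNA integrity and amplification, was 5.69 in heart 7 and 2.50 to 3.55 in the others. The actin ratio was 4.27 in heart 7, below the 4.48 of heart 8. The part of RNA quality in these differences was not tested.

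Alas2, the erythroid first enzyme, varied most. Its probe set 1451675_a_at gave intensities of 482, 2581, 1428, 780 and 889 in hearts 6 to 10. The levels were 8.96, 11.34, 10.50, 9.64 and 9.82 in the same order, a mean of 10.05 ± 0.91 (SD, n = 5). Hearts 7 and 8 were the high ones and heart 6 the low one, with 5.36 times as much signal in heart 7 as in heart 6. The SD exceeded that of 99.9% of all probe sets above background, and the prior SD fitted for probe sets of this level was 0.22. By limma's variance test, an F test of each probe set's variance against a prior that follows the level, unadjusted p was 5.78e-05 and adjusted p was 0.106 after Benjamini-Hochberg over 20393 probe sets, so Alas2 did not pass. Over 15 alternatives the adjusted p lay between 0.0332 and 0.946, and it passed under 1 of them, an offset of 1 in place of 16. Without heart 7 the SD was 0.63 and the adjusted p was 0.325.

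Alas1, the housekeeping form, did not follow Alas2 in heart 8. Probe set 1424126_at had levels of 6.80, 7.36, 6.63, 7.24 and 7.21 in hearts 6 to 10, a mean of 7.05 ± 0.31, and probe set 1455282_x_at had 7.06, 6.98, 6.17, 6.40 and 6.49, a mean of 6.62 ± 0.38 (n = 5 each). Heart 8, which was high for Alas2, was the lowest for both Alas1 probe sets, as it was for Ppox 1416618_at. Urod and Slc25a37 were also below their means over hearts there, at -0.11 and -0.17. Alad, Fech 1418699_s_at and Tfrc 1452661_at were above theirs, at 0.07, 0.46 and 0.08. A low heart 8 was thus not particular to Alas1. Heart 7 was the highest for 1424126_at, as for Alas2. The pair of Alas1 probe sets differed in hearts 6, 9 and 10, with a root mean square difference of 0.39 between their levels centred over hearts, as large as the SD of either. Probe sets ending in _x_at can bind other transcripts, so the second value is the less specific. Neither passed the variance test (adjusted p = 0.961 for both, unadjusted p = 0.343 and 0.188). Centred over hearts, the root mean square difference from Alas2 was 0.37 for Fech, 0.54 for Ppox, 0.62 for Urod, 0.63 for Alad, 0.74 for Slc25a37, 0.77 for Alas1 and 0.995 for Tfrc, with the probe set of highest mean for each. By this measure the erythroid mitoferrin gene Slc25a37 was about as far from Alas2 as Alas1 was. The measure also depends on spread, with an SD of 0.91 for Alas2, 0.41 for Slc25a37 and 0.31 for Alas1. The order depends on the probe set taken as well. Tfrc was read by 1452661_at, at -0.37 in heart 7 when centred, where 1422966_a_at was at 0.78 and Alas2 at 1.29. Fech was read by 1418699_s_at, at 0.46 in heart 8 when centred, where 1418698_a_at was at -0.02 and Alas2 at 0.44.

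Alad and Urod, which act after either form of the first enzyme, were also highest in heart 7. Alad, which joins the products of the first step into a pyrrole ring, had levels of 7.92, 8.57, 8.13, 8.17 and 7.55 in hearts 6 to 10 (8.07 ± 0.37, n = 5). Urod, which trims the side chains of the first cyclic product, had 9.14, 9.80, 9.08, 9.01 and 8.90 (9.19 ± 0.36, n = 5). For Urod the other 4 hearts lay close together, and the SD without heart 7 was 0.10. Alad spread on both sides, with heart 10 as far below as heart 7 was above. Neither passed the variance test, with an adjusted p of 0.961 for both and an unadjusted p of 0.164 for Alad and 0.132 for Urod.

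Ppox, the enzyme before the last, stood out in heart 7 alone. Probe set 1416618_at had levels of 8.13, 9.44, 8.08, 8.20 and 8.47 (8.46 ± 0.57, n = 5), with 2.66 times as much signal in heart 7 as in heart 8. Its SD was 0.17 without heart 7, and the unadjusted p of 0.0145 became an adjusted p of 0.854 by limma's variance test. The other Ppox probe set, 1448065_at, was above background in 4 hearts and showed no such peak, with 5.81 in heart 7, the other hearts lying at 5.32 to 5.97. The Ppox peak thus rests on 1 of 2 probe sets. Cpox, which acts just before Ppox, was above background in 2 hearts by probe set 1422492_at, hearts 6 and 8, at 5.30 ± 0.25 (n = 5), and in none by 1422493_at at 4.30 ± 0.16 (n = 5). Cpox may still be expressed at a level these probe sets do not reach.

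Fech, which inserts the iron, gave different pictures by its 4 probe sets. Probe set 1418699_s_at had 10.27, 11.50, 11.27, 10.49 and 10.53 in hearts 6 to 10 (10.81 ± 0.54, n = 5), with hearts 7 and 8 high as for Alas2. Probe set 1418698_a_at had 8.87, 9.63, 9.15, 9.14 and 9.05 (9.17 ± 0.28, n = 5), with heart 7 alone high and an SD of 0.13 without it. Both put heart 7 highest and heart 6 lowest, and they disagreed on heart 8. Probe set 1418699_s_at had an unadjusted p of 0.00347 and an adjusted p of 0.632 by limma's variance test, and an _s_at set can bind transcripts of more than 1 gene. The remaining Fech probe sets were dim. Probe set 1449181_at was above background in 3 hearts, at 5.44 ± 0.28, and 1427696_at in none, at 4.23 ± 0.28 (n = 5 each).

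Iron transport was measured by 1 probe set for Slc25a37 and 6 for Tfrc. Slc25a37, mitoferrin 1, had levels of 6.91, 7.22, 6.51, 6.13 and 6.64 in hearts 6 to 10 (6.68 ± 0.41, n = 5). Hearts 7 and 6 were high and heart 9 low, with 2.47 times as much signal in heart 7 as in heart 9, and the test was not passed (unadjusted p = 0.143, adjusted p = 0.961 by limma's variance test).

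The Tfrc probe sets disagreed on heart 7. Probe set 1452661_at had 10.39, 9.76, 10.21, 10.11 and 10.19 (10.13 ± 0.23, n = 5), with heart 7 the lowest. Probe set 1422966_a_at had 6.50, 7.48, 6.68, 6.43 and 6.40 (6.70 ± 0.45, n = 5), with heart 7 the highest by 0.80 over the next heart. Centred over hearts, these probe sets differed by 0.59 in root mean square. Each had the other 4 hearts close together, with an SD of 0.12 and 0.13 without heart 7. Neither passed limma's variance test (adjusted p = 0.961 for both, unadjusted p = 0.396 and 0.0959). Probe set 1422967_a_at was above background in 3 hearts, at 5.53 ± 0.29 (n = 5).

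The array also carries 3 Tfrc control probe sets placed along the transcript, whose signal decreases towards the 5' end when RNA is broken or copied in part. The 3' set had intensities of 89.2, 124, 115, 76.0 and 63.8 in hearts 6 to 10 and was above background in all of them. The middle set had 45.5, 36.5, 32.2, 34.0 and 16.9 and was above background in 4 hearts, all but heart 10, and the 5' set, at 1.55 to 13.7, was above it in none. By the 3' set heart 7 was the highest for Tfrc, and by the middle set heart 6 was. The direction of the Tfrc difference in heart 7 therefore depended on the probe set, and its relation to position along the transcript was not tested.

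**Figure D2:**
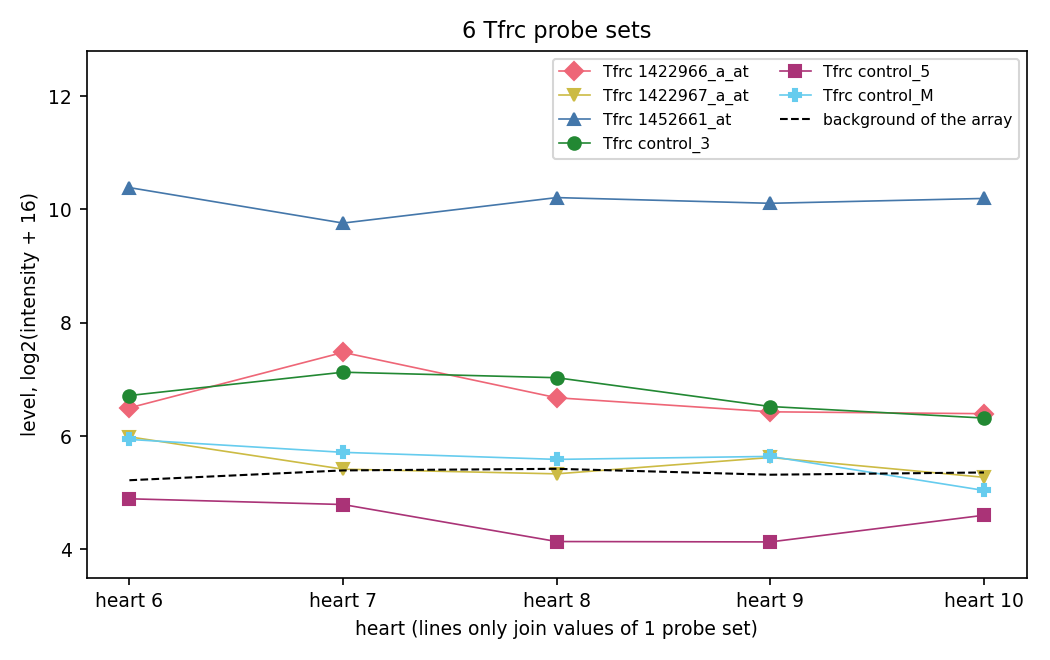
Levels of the 6 Tfrc probe sets in each heart, on a vertical axis of log2(intensity + 16), with the background of each array as a dashed line. The labels control_3, control_M and control_5 are the 3', middle and 5' control sets, and lines join values of 1 probe set with no order among hearts meant. In heart 7 probe set 1452661_at is at its lowest, 9.76, while 1422966_a_at is at its highest, 7.48.

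As a group the members varied more than the typical probe set, and none passed the test. The median SD of the 12 probe sets above background was 0.38, against 0.24 over all 9373 such probe sets, and 4 of the 12 lay in the top 10% of SDs, which began at 0.43. These were Alas2, Ppox 1416618_at, Fech 1418699_s_at and Tfrc 1422966_a_at. For 3 of the 12, Urod, Ppox 1416618_at and Tfrc 1422966_a_at, heart 7 lay apart from the other hearts by more than 0.71 of the whole range (Dixon's ratio), as 1 heart did for 6.32% of all such probe sets. Without heart 7 the medians were 0.29 for the members and 0.21 for all. Limma's variance test called 0 of 20 member probe sets at an adjusted p of 0.05, where it called 9 of 20393 (0.0441%), and 3 of 20 had an unadjusted p under 0.05, where 4.33% of all did. The members were chosen with earlier results of these data known, so their spread as a group is a description only. The 12 probe sets are of 8 genes and are not independent of each other. The number of hearts limits the precision of every SD.

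**Figure D3:**
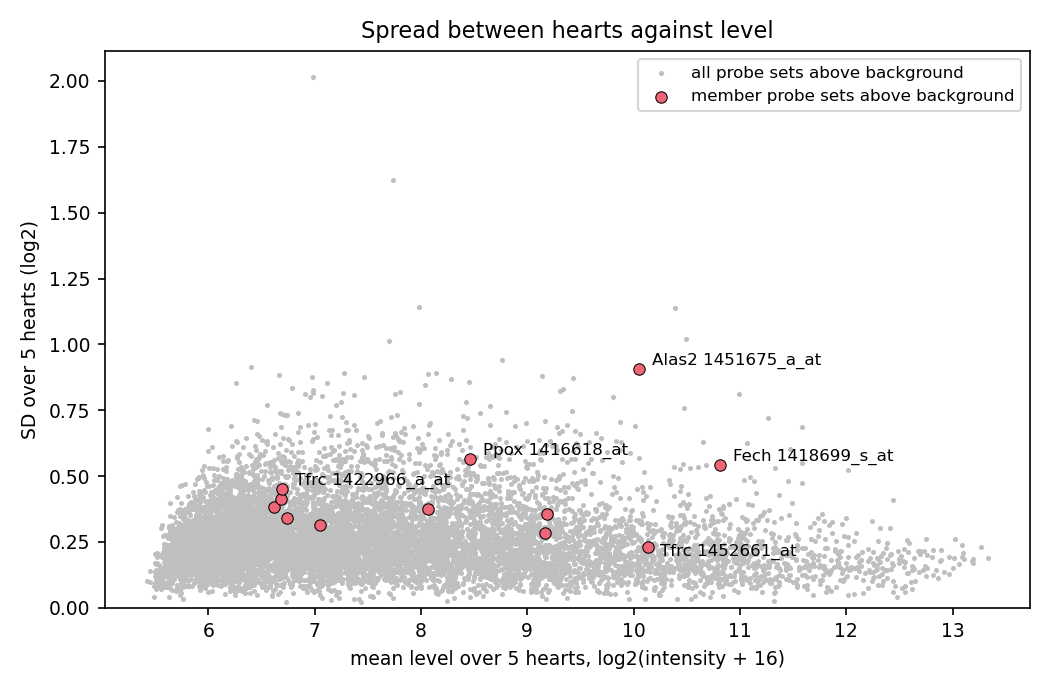
SD over 5 hearts (vertical, log2) against mean level (horizontal, log2 of intensity + 16) for the 9373 probe sets above background in all hearts, in grey, and the 12 member probe sets among them, in red. Alas2, at an SD of 0.91, lies above nearly all probe sets of its level, and Tfrc 1452661_at, at 0.23, within the bulk.

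Most red cell markers were also highest in heart 7. Of the 23 measured, 11 had an unadjusted p under 0.05, where 4.33% of all probe sets did, and 0 were called by limma's variance test, where 0.0441% were. The erythroid index, the median over 13 erythroid genes above background of the level centred on each gene's mean, took the values -0.12, 0.52, 0.19, -0.44 and -0.18 in hearts 6 to 10. These 13 genes include embryonic globins and the anion exchanger Slc4a1. Of them, 9 were highest in heart 7, against 30.4% of all genes above background. Summed intensities of all 23 measured markers ran from 17369 in heart 9 to 26269 in heart 7. This sum rests mainly on the embryonic globin genes Hba-x, Hbb-bh1 and Hbb-y, with 7942, 5425 and 8876 in heart 7. Kel, a blood group protein of red cells, spanned 6.43 in heart 9 to 8.35 in heart 7, and Klf1, the erythroid transcription factor, spanned 5.40 to 7.04 between the same hearts. Nfe2, a transcription factor of red cells and platelets, went from 5.64 to 7.06 and the red cell membrane gene Ermap from 6.78 to 8.21, again with heart 9 lowest and heart 7 highest. The embryonic globin gene Hba-x ran from 12.09 in heart 6 to 12.96 in heart 7. Other genes of the index went differently. Tspan33 and the embryonic globin gene Hbb-y were highest in heart 8, at 7.83 and 13.45, and Ank1 in heart 6, at 6.96. Mgst3 was highest in heart 10, at 6.31, and lowest in heart 7, at 5.56. Hearts 7 and 8 were the highest for the index, as they were for Alas2 and Fech 1418699_s_at. The low end differed, with heart 9 lowest for the index and heart 6 lowest for both of these probe sets. Rhag, Epb42 and Hemgn were above background in no heart. The erythroid list was drawn up with earlier results on these hearts known. Neither its order of hearts nor its share of unadjusted p under 0.05 is therefore independent support. Some of those 11 genes were not above background in every heart.

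With the erythroid index subtracted heart by heart, 9 of the 12 member probe sets varied less, with a median ratio of 0.708 between the SD after and before. The share that varied less among all probe sets above background was not computed, for this or the other indices below. The counts therefore do not show whether the members differ from other genes. The SD went from 0.91 to 0.64 for Alas2, from 0.54 to 0.28 for Fech 1418699_s_at, from 0.36 to 0.22 for Urod, from 0.41 to 0.27 for Slc25a37 and from 0.45 to 0.20 for Tfrc 1422966_a_at. What was left of Alas2 was -0.97 in heart 6 and 0.78 in heart 7. A median over genes has a narrower range than single genes, so this remainder does not set Alas2 apart from single markers. The SD left was 0.38 without heart 6. The 3 that varied more after subtraction were both Alas1 probe sets, from 0.31 to 0.49 and from 0.38 to 0.45, and Tfrc 1452661_at, from 0.23 to 0.54. With an index of 12 cardiomyocyte genes the median ratio was 0.901, with 9 of 12 smaller, and with an index of 4 macrophage genes, which disagreed among themselves, it was 1.32, with 3 of 12 smaller. The cardiomyocyte index ran only from -0.19 to 0.11 over hearts, and the erythroid index from -0.44 to 0.52. A ratio depends on the span of its index, so the ratios do not rank the indices. These ratios are descriptions, with no test.

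**Figure D4:**
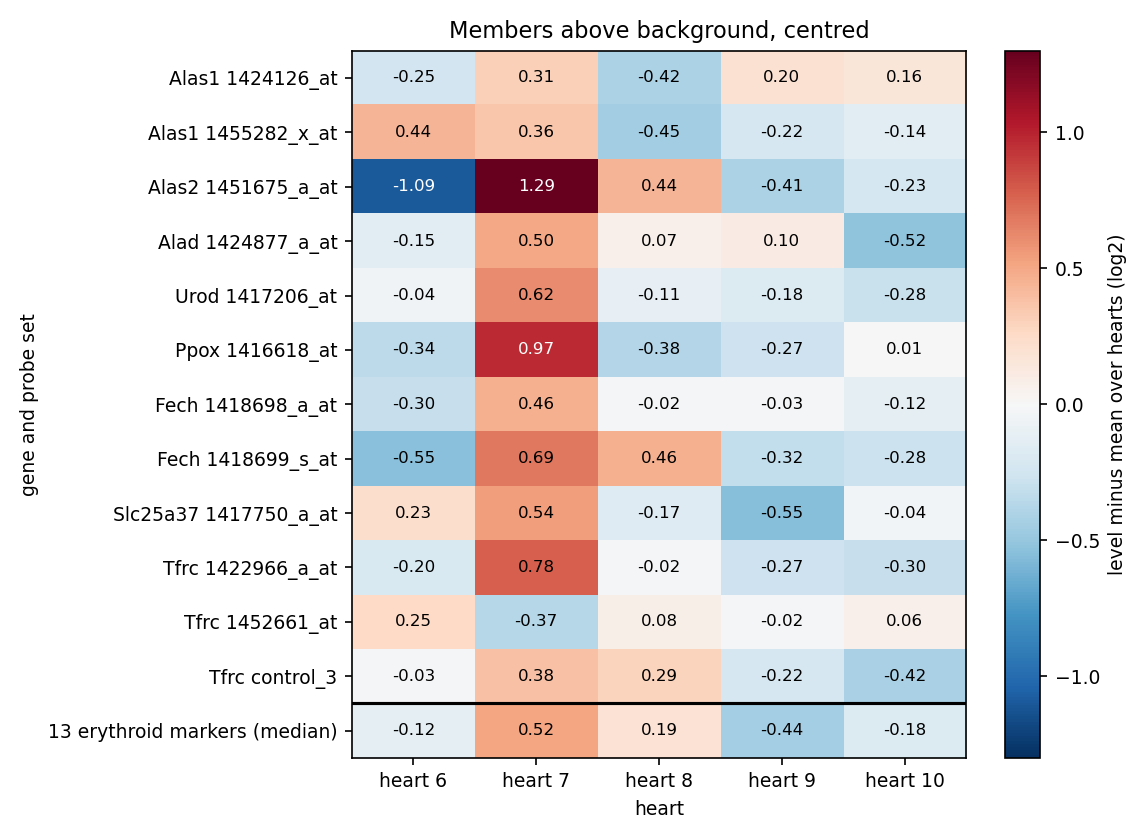
Level minus the mean over hearts (log2, colour and printed value) for the 12 member probe sets above background, with the median of 13 erythroid markers in the bottom row and hearts in columns. The heart 7 column is positive in every row but that of Tfrc 1452661_at, at -0.37, and heart 8 is clearly positive for Alas2, at 0.44, and Fech 1418699_s_at, at 0.46.

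Other genes of haem and iron handling were measured beside the members. Of 38 listed, 30 were measured and 22 were above background in all hearts. None was called by limma's variance test (0.0441% of all probe sets were) and 5 of the 30 had an unadjusted p under 0.05 (4.33% of all). Of the 22, 9 were highest in heart 7, against 30.4% of all genes above background, and 9 were lowest in it, against 29.4%. Their median SD was 0.24. The groups differed in this, with 1 highest and 5 lowest among 7 genes of storage, export and sensing and 2 highest and 1 lowest among 5 of mitochondrial and porphyrin transport. Uros, the enzyme that closes the porphyrin ring, had 7.91 in heart 7, the other hearts lying at 7.41 to 7.80 (7.62 ± 0.22, n = 5).

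Among transporters of the mitochondrial and porphyrin group, 5 of 6 measured genes were above background. Abcb6, a porphyrin transporter, had 8.12 in heart 7, the other hearts lying at 6.75 to 7.28 (7.23 ± 0.54, n = 5, unadjusted p = 0.0316, adjusted p = 0.961 by limma's variance test). Abcb10, a mitochondrial transporter needed for haem synthesis in red cell precursors, had 6.72 in heart 7, the other hearts lying at 7.25 to 7.55 (7.27 ± 0.33, n = 5), the opposite order. Slc25a28, mitoferrin 2, the more widely expressed relative of Slc25a37, had 6.63 in heart 6, the other hearts lying at 6.88 to 7.18 (6.92 ± 0.20, n = 5). Slc25a38, a glycine carrier for the first step, was above background in 4 hearts (5.62 ± 0.30, n = 5). In the endosomal uptake group, 2 of 6 were above background in all hearts. The iron exporter of the endosome Slc11a2 (5.09 ± 0.41) was above it in 1 heart, and the reductase Steap3 (4.91 ± 0.24) and the second transferrin receptor Tfr2 (4.66 ± 0.13) in none (n = 5 each).

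All 7 measured genes of iron storage, export and sensing were above background, and 5 of them were lowest in heart 7. Ireb2, an iron-regulatory protein that binds Tfrc and ferritin transcripts, had 5.41 in heart 7, 5.56 in heart 9 and 6.43 to 6.96 in the others (6.21 ± 0.69, n = 5, unadjusted p = 0.00730, adjusted p = 0.745 by limma's variance test). Pcbp2, a chaperone that hands iron to ferritin, had 7.20 in heart 7, the other hearts lying at 7.98 to 8.59 (8.14 ± 0.58, n = 5). The ferritin heavy chain gene Fth1 took the other direction, with 11.88 in heart 7 and 11.82 in heart 8, the other hearts lying at 11.12 to 11.49 (11.53 ± 0.32, n = 5). The iron exporter gene Slc40a1 (6.02 ± 0.25) and the ferroxidase gene Heph (6.43 ± 0.20) were lowest in heart 7 (n = 5 each).

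Iron-sulphur cluster genes, which share the mitochondrial iron, were above background in 4 of 4 measured cases. Isca1 was at 7.95 in heart 7, with the other hearts at 8.67 to 9.23 (8.75 ± 0.49, n = 5), while the scaffold Iscu had 9.27 in heart 7, the other hearts lying at 8.71 to 9.16 (8.99 ± 0.22, n = 5) and the desulphurase Nfs1 was lowest in heart 7 (5.93 ± 0.25, n = 5). Of 6 genes of haem breakdown and export, 3 were above background in all hearts. Blvrb, a reductase abundant in red cells, had 8.28 in heart 7 and 8.18 in heart 8, the other hearts lying at 7.08 to 7.63 (7.74 ± 0.49, n = 5), the order of hearts seen for Alas2 and Fth1 at the top. Hmox2, the constitutive haem oxygenase, was at 8.67 ± 0.20 and Blvra at 7.98 ± 0.23, and the inducible Hmox1 was above background in 3 hearts at 5.28 ± 0.33 (n = 5 each).

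The genes whose centred levels were nearest to those of a member were named for Alas2, Ppox and Fech. The main probe sets of these members lay in the top 10% of SDs. Likeness was the smallest root mean square difference between centred levels over 5 hearts among 6404 other genes above background. For Alas2 these were Gclm, a subunit of the enzyme that starts glutathione synthesis, at 0.30, the Kell blood group partner Xk at 0.32, Fam174b at 0.32, Mkrn1 at 0.33 and the chaperone Dnajb4 at 0.34. Gclm, the closest, spanned less than Alas2, from 6.58 in heart 6 to 8.29 in heart 7. For Ppox they were Sema3b at 0.06, the kinase Riok3 at 0.07, the red cell anion exchanger Slc4a1 at 0.16, Narf at 0.16 and the tubulin gene Tuba4a at 0.17. For Fech 1418699_s_at they were Dnajb4 at 0.09, the blood transcription factor Tal1 at 0.09, Aldh2 at 0.12, Blvrb at 0.13 and Creld1 at 0.13. No test was made of these likenesses.

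Markers of other cells that could bring haem genes into the sample were read in the same hearts. Of 10 macrophage genes, 4 were above background in all hearts. These 4 disagreed. The receptor gene Csf1r and the complement gene C1qb were highest in heart 7, at 8.99 and 9.00, and lowest in heart 8, at 7.68 and 7.80. Mrc1 was lowest in heart 7, at 5.96, and highest in heart 6, at 6.62, and Lyz2 was highest in heart 10, at 7.91, with 7.03 in heart 7. The summed intensity of the list, from 696 in heart 8 to 1248 in heart 7, rests mainly on Csf1r and C1qb. Cd68 was above background in 4 hearts and Adgre1 in 1. Of 8 liver genes, 1 was above background, Ttr, and Alb at 4.63 ± 0.49 and Afp at 4.62 ± 0.28 were above it in no heart (n = 5 each). Apoa2 was above background in 4 hearts, at 4.50 in heart 6 and 5.99 to 6.52 in the others (unadjusted p = 0.00190, adjusted p = 0.493 by limma's variance test). The summed intensity of the liver list, from 97.0 in heart 6 to 173 in heart 9, includes this gene. Of 5 platelet and megakaryocyte genes, 1 was above background, Pf4 at 6.75 ± 0.22 (n = 5), with summed intensities from 127 to 240, and Itga2b was above background in 1 heart, heart 7, and Gp9 in 3. Of 8 endothelial genes, 6 were above background. Their summed intensity, from 1786 in heart 7 to 2756 in heart 10, is mostly that of Tek, with 901 in heart 7 and 1792 in heart 10. The median centred level over these 6 genes was -0.02 in heart 7 and lay between -0.08 and 0.07 in all hearts. Kdr was at 6.46 ± 0.31 (n = 5), and Eng was highest in heart 7, at 7.62. Of the heart muscle genes, Myh6 was at 11.97 ± 0.14, and the calcium channel gene Ryr2 was lowest in heart 7, at 6.70, with 7.45 to 7.96 elsewhere. The part of these cells in the haem gene differences was not tested.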

How the data were processed

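The authors deposited a linear intensity for each probe set of each array. The submitters' processing notes name GCOS, whose version and summary algorithm were not given in the sources used here. Per the labels' protocols, each heart gave 10 ng of total RNA, amplified before labelling, which can add noise to weak signals. Platform annotation named 1 gene for 20393 of 22690 probe sets, several for 691, and did not list 1606. Of those with 1 symbol, 20364 matched RefSeq's GRCm38.p6 gene table by Entrez number.

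From the deposited intensities, each array was brought to the same 2% trimmed mean (150.1 on all before this step), and log2(intensity + 16) was taken. This offset compresses differences of weak probe sets. Spread was tested with limma 3.58.1 in R 4.3.3, by an upper-tail F test of each variance (4 degrees of freedom) against a robust prior that follows the level (12.6 degrees of freedom), with Benjamini-Hochberg adjustment over 20393 probe sets. The prior comes from the same probe sets. The test was tried on simulated data first.

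Of 81 listed off-tissue genes, 69 were measured, and 1 of them was above background in all hearts. Control probe sets for Tfrc were kept, as the selection rule takes them. The members and lists were chosen with earlier results of these data known. Named were all members, the first 3 measured genes of each list, list genes in the top 10% of SDs, and the 5 genes most like a member in that range. Rhag, Epb42, Hemgn, Hbb-bh1, Hbb-y, Ank1, Mgst3, Sptb, Gfi1b, Tmem14c, Atp2a2, Mrc1, Lyz2, Apoa2 and Eng were named after their values were seen. Alternatives were other scaling, offsets, backgrounds, priors, probe set choices and leaving out each heart. Leaving out the Tfrc control probe sets was added after seeing the data.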

Additional observations from a re-analysis of the deposited data

Results flagged for a closer look

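A single heart stood far from the other 4 in 6 of 68 values, with a gap to the nearest heart of more than 0.71 of the whole range (Dixon's ratio). Chance gives about 1 in 20, and 6.32% of all probe sets above background passed this limit. Among members these were Urod, with a ratio of 0.731, Ppox 1416618_at, with 0.712, and Tfrc 1422966_a_at, with 0.740, each with heart 7 on top. The anion exchanger gene Slc4a1, with a ratio of 0.872, also had heart 7 on top. Myh7, the beta myosin heavy chain, had heart 6 lowest with a ratio of 0.753. Pecam1, an endothelial adhesion gene, had heart 7 lowest with 0.774 at levels that were above background in no heart. The 68 values leave out some measured list genes that also passed this limit. These were Sptb, with 0.838, Tmem14c, with 0.811, Apoa2, with 0.739, Gfi1b, with 0.738, and Atp2a2, with 0.7101. Sptb, Apoa2 and Gfi1b were not above background in every heart.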

How the results depend on the processing

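The number of member probe sets above background stayed within 1.5 times its value under every alternative run. The highest count was 16, at a 90th percentile background or when 3 hearts sufficed. The lowest was 8, with 1 probe set per gene, a count out of 9 genes in place of 20 probe sets. The median SD also stayed within 1.5 times its value, between 0.294 without heart 7 and 0.425 at an offset of 1. With an offset of 1, limma's variance test called 1 member, Alas2, and 17 probe sets in all. Of 276 member values under other settings, 275 kept their side of the threshold, that Alas2 call being the exception, and the lowest adjusted p of any other member was 0.374. The count over all probe sets was 9, and it was 2 without robust estimation, 1 without the trend, 5 with 1 probe set per gene and 5 without _x_at and _s_at probe sets. Limited to the 9373 probe sets above background it was 0, with 472 at an unadjusted p under 0.05. Leaving out 1 heart gave 4 to 16 such calls, the extremes without heart 8 and without heart 7. The Alas2 spread left after subtracting the erythroid index ranged from 0.383, without heart 6, to 0.720, without heart 9. The cause of these changes was not tested. A background from bacterial control probe sets was not run, since the labels do not say which were spiked. No paired analysis was possible because the hearts form 1 group. The probe sets of Cpox lie too near background for a difference between hearts to be read.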
